A study of Mus musculus with 217 samples.

Results

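Tissue inhibitors of metalloproteinases (TIMPs) and the matrix proteases they hold in check were followed through systemic inflammation in brain, lung and heart endothelial cells (ECs). The set holds 10 of the 52550 genes counted and was given by name: the inhibitors Timp1, Timp2, Timp3 and Timp4, the matrix metalloproteinases Mmp2, Mmp14 and Mmp15, and the proteases Adamts1, Adamts4 and Adamts9. All 10 passed the filter on low counts in each tissue. Every mouse was an adult RiboTagEC mouse on the C57BL/6J background (Cdh5CreERT2/+; Rpl22HA/+), in which the Cdh5 promoter drives a tamoxifen-inducible Cre that tags ribosomal protein Rpl22 with HA in ECs. All mice, controls included, received 5 mg tamoxifen by gavage 4 times every other day from 4 to 6 weeks of age. Ribosome-bound RNA was pulled down with an anti-HA antibody from control mice (0 hr) or 6, 24, 48, 72 or 168 hr after lipopolysaccharide (LPS), the endotoxin of Gram-negative bacteria, given intraperitoneally at 10 mg per kg. According to the paper, the controls were injected with PBS. The libraries used numbered 28 from brain, 24 from lung and 28 from heart, of 98 in all. In the order of the times just given, there were 5, 5, 4, 6, 4 and 4 brain libraries, 4, 4, 2, 6, 4 and 4 lung libraries, and 5, 5, 4, 6, 4 and 4 heart libraries.

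The extracellular matrix around vessels is renewed by secreted and membrane-bound zinc proteases, and TIMPs block these enzymes by occupying their active site. Mmp2 degrades type IV collagen of the basement membrane, and the membrane-type enzymes Mmp14 and Mmp15 act at the cell surface, where Mmp14 together with Timp2 activates the Mmp2 proenzyme. The ADAMTS proteases Adamts1, Adamts4 and Adamts9 cleave proteoglycans such as versican and aggrecan, and Timp3, which stays bound to the matrix, is their main tissue inhibitor. Timp1 is known as an inhibitor that inflammatory signals raise in many cell types, whereas Timp4 is known for its high level in heart.

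The promoters of Timp1, Adamts1 and Adamts9, which rose in brain at 6, 24 and 48 hr after LPS, and of Timp4, which was not called in brain at these times, are shown as examples of members with different courses. Each is the 250 bases before the RefSeq start on GRCm38.p6, read 5′ to 3′ along the gene, and capitals mark the motifs found in it. The motifs marked are the GC box (GGGCGG or its complement CCGCCC) and the TATA motif (TATAAA).
Timp1, chrX:20869916-20870165, plus strand: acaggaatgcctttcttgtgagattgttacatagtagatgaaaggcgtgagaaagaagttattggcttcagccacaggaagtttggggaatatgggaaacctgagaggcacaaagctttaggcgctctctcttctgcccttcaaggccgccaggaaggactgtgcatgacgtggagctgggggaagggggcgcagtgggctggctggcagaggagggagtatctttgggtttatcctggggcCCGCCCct
Adamts1, chr16:85803114-85803363, minus strand: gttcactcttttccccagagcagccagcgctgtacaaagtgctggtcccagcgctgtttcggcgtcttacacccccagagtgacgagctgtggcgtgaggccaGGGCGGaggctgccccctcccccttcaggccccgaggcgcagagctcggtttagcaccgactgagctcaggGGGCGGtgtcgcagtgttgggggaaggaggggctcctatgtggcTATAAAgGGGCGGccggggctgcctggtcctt
Adamts9, chr6:92943535-92943784, minus strand: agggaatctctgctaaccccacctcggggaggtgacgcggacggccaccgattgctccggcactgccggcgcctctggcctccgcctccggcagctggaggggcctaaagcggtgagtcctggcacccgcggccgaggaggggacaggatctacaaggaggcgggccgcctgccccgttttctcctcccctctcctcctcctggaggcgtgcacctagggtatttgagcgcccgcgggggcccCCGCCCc
Timp4, chr6:115252206-115252455, minus strand: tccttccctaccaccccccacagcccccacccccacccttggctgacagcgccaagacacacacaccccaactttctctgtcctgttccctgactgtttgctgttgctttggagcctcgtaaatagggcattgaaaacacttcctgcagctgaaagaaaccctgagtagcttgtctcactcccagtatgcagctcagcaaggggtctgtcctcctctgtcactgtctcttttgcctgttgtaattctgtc

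Of the 10 genes, 8 had a promoter entry, and Mmp2 and Adamts4 had none. A GC box stood in 7 of the 8 windows, in those of Timp1 (at -8 bases from the start), Adamts9 (-7) and Adamts1 (-147, -76 and -25), and also in those of Timp2 (-37), Timp3 (-15 and 13), Mmp14 (-19 and -13) and Mmp15 (-106), which were not called in brain at 6, 24 or 48 hr. The motif thus did not separate the members that rose in brain from the others. Timp4 had none, and 35.7% of all 32851 promoters of the same length held this motif on either strand. Adamts1 was the only member with the TATA motif, at -32, and 13.6% of all promoters held it. The other motifs searched on both strands were the AP-1 motif TGANTCA (7.81% of all promoters), the cyclic AMP response element TGACGTCA (1.79%), the STAT motif TTCNNNGAA (8.3%), the C/EBP motif TTGCNNAA (10.8%) and the NF-kB consensus (4.51%), and none of the 8 windows held any of them, which says only that these letters are not there. The windows searched ran from 250 bases before to 50 after the start. On mm10, Timp1 lies at chrX:20870166-20874735, Timp2 at chr11:118301069-118355740, Timp3 at chr10:86300372-86349506, Timp4 at chr6:115241892-115252205, Mmp2 at chr8:92827291-92853420, Mmp14 at chr14:54431612-54445364, Mmp15 at chr8:95352268-95375080, Adamts1 at chr16:85793827-85803113, Adamts4 at chr1:171250421-171260637 and Adamts9 at chr6:92772699-92943492. Timp1, Timp3 and Timp4 lie within the spans of Syn1, Syn3 and Syn2, which are on the opposite strand. Timp3 shared 1733 bases of exon with Syn3, Timp4 90 bases with Syn2 and Adamts9 1805 bases with 2 genes, each on the opposite strand. Since the setting for strand in the counting was not stated, reads in those shared bases cannot be told apart.

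The libraries used had 284457 to 43417945 counts on genes, and 3.40% to 70.0% of their reads fell on genes. The 18 libraries under 3% were left out, and all of them had the file name pattern called library series 3. The remaining libraries belonged to library series 1, 2 and 4, of which series 4 held no library at 0 or 6 hr. All 12 endothelial markers checked were counted in every 0 hr library. Levels are given in counts per 1000000 counts on genes, scaled between libraries by TMM (CPM). The summed level of these markers at 0 hr ran from 2695 to 5344 CPM for brain libraries, 14220 to 22960 CPM for lung libraries and 12230 to 13960 CPM for heart libraries. Other cells were also represented, with summed neuron markers at 1449 to 5519 CPM in brain, lung epithelium markers at 6800 to 13190 CPM in lung and cardiomyocyte markers at 3218 to 5798 CPM in heart. In such samples fewer cells of a type and less RNA per cell cannot be told apart. The labels do not say whether libraries of a group came from separate mice, so that p-values measure the spread between libraries.

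The 6 hr mouse of library series 1, read from the file names as 1 brain, 1 lung and 1 heart library, went against its label in brain and heart. Over 12 LPS-responsive genes chosen after their values were seen (Sele, Selp, Icam1, Vcam1, Lcn2, Ccl2, Cxcl10, Cxcl1, Socs3, Lrg1, Gbp2 and Irf1), its mean log2 CPM was 3.44 in brain, against 7.34 to 8.77 in the other 6 hr brain libraries and 2.30 to 3.52 at 0 hr. In heart it was 5.08, against 9.85 to 10.83 at 6 hr and 4.25 to 4.65 at 0 hr, and in lung 2.24, against 7.04 to 7.71 and 3.27 to 4.52. In its lung library 0 counts gave -3.35 and 1 count gave 4.82 log2 CPM. The lung mean therefore cannot show whether that library responded. This mouse stayed in its labelled group, and results at 6 hr are given with and without it. Its lung library was also the shallowest, with 284457 counts. With its TMM factor of 0.125 in the scaling, 1 count there stood for 28.1 CPM. The factor was also low in lung_6hr replicate 2 (0.288) and lung_48hr replicate 1 (0.241). In the shallowest library Mmp15 had 4 counts, Timp3 had 3, Timp2 had 2, Timp1, Timp4, Adamts1 and Adamts4 had 1 each, and Mmp2, Mmp14 and Adamts9 had 0.

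At 0 hr, Timp3 was the most abundant of the 10 genes in each tissue, and Adamts4 or Adamts9 the least. Levels between genes were compared per length of exon, as log2 CPM per kilobase (RPKM). Timp3 stood at 6.96 ± 0.71 (SD, n = 5) log2 RPKM in brain, 7.19 ± 0.75 (n = 4) in lung and 8.46 ± 0.39 (n = 5) in heart. In brain it was followed by Timp2 (5.82 ± 0.44), Mmp14 (3.77 ± 0.56), Timp1 (3.68 ± 0.70), Adamts1 (3.02 ± 0.37), Timp4 (2.36 ± 0.72), Mmp15 (1.88 ± 0.67), Mmp2 (0.60 ± 0.74), Adamts4 (-0.62 ± 0.69) and Adamts9 (-1.28 ± 0.37). Apart from the gap between Timp2 and Mmp14, neighbours in this brain order lay within the sum of their SDs. In lung the order was Timp3, Timp2 (6.65 ± 0.52), Mmp14 (5.32 ± 1.37), Mmp15 (5.15 ± 1.08), Timp1 (4.18 ± 1.51), Adamts1 (3.09 ± 1.02), Mmp2 (0.89 ± 0.87), Timp4 (0.41 ± 0.55), Adamts9 (0.01 ± 0.57) and Adamts4 (-2.39 ± 1.54). The SD was larger in lung than in brain and heart for 9 of the 10 genes, with Timp4 the exception. In heart Timp4 (7.20 ± 0.39) came second, ahead of Timp2 (5.29 ± 0.35), Mmp15 (5.22 ± 0.25) and Adamts1 (5.12 ± 0.35), which lay within 1 SD of each other. Below them came Adamts9 (2.71 ± 0.30), Mmp14 (2.41 ± 0.34), Mmp2 (1.85 ± 0.27), Timp1 (1.50 ± 0.28) and Adamts4 (-1.13 ± 0.66).

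**Figure D1:**
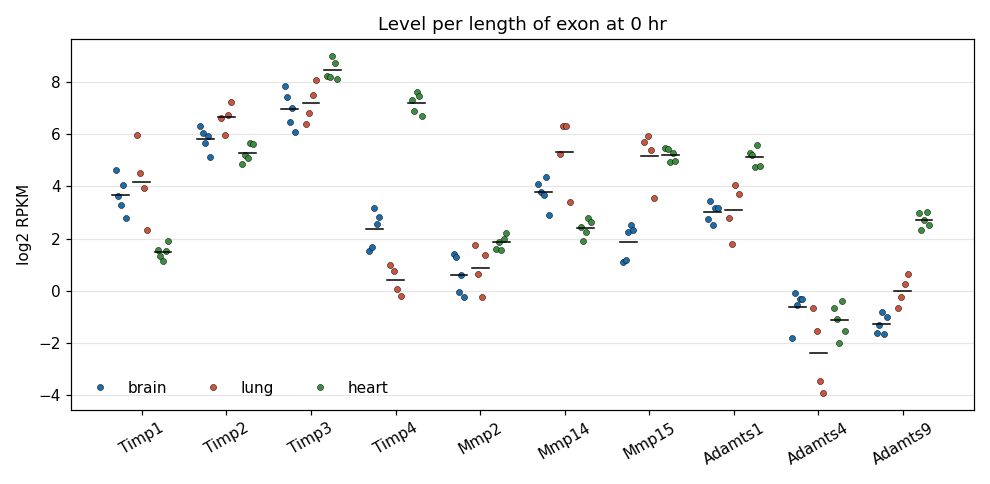
Level per length of exon (log2 RPKM) of the 10 genes in each 0 hr library of brain, lung and heart ECs, with 1 point per library and a line at the mean. Timp3 is highest in each tissue, Timp4 stands far higher in heart than in brain or lung, and Mmp15 is lowest in brain.

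Heart libraries differed from those of the other tissues at baseline mostly through Timp4 and Adamts9, and brain libraries through a low Mmp15. Timp4 was at 927, 692, 1167, 1051 and 615 CPM in heart, 17.0, 18.9, 53.7, 34.8 and 41.4 CPM in brain and 11.5, 9.86, 6.17 and 5.09 CPM in lung. No library overlapped between heart and the other tissues. The log2 difference was 4.89 ± 0.36 (SE) below heart for brain and 6.76 ± 0.44 below heart for lung (edgeR adjusted p = 2.259e-08 and 7.216e-08), and brain exceeded lung by 1.87 ± 0.36. In heart libraries the 8 cardiomyocyte markers checked were all counted, at a sum of 3218 to 5798 CPM, against 42.9 to 82.3 CPM in brain and 70.8 to 152 CPM in lung, and their part in the Timp4 level was not tested.

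Adamts9, a protease of versican and aggrecan, was at 118, 75.0, 97.9, 123 and 86.2 CPM in heart, against 4.64 to 8.37 CPM in brain and 9.43 to 23.4 CPM in lung. The 3 tissues did not overlap in it. Brain lay 4.06 ± 0.29 and lung 2.63 ± 0.30 log2 units below heart (edgeR adjusted p = 1.566e-08 and 4.91e-06), and brain 1.43 ± 0.28 below lung. Adamts1, a related protease, was likewise higher in heart (143 to 255 CPM) than in brain (30.6 to 57.7 CPM) and lung (18.2 to 87.7 CPM), by 2.17 ± 0.36 and 1.84 ± 0.38 log2 units. Adamts4 differed in no pair of tissues in the main test, with a brain minus lung difference of 1.56 ± 0.68 (adjusted p = 0.0574). That Adamts4 difference was called with limma-voom (2.11), and without brain_0hr replicate 1 (1.81), without lung_0hr replicate 1 (2.23) or without lung_0hr replicate 2 (2.07), and the lung minus heart difference (-1.08) was called without lung_0hr replicate 1 (-1.79).

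Mmp15 was at 11.5, 12.2, 25.3, 30.7 and 27.1 CPM in brain, against 63.7 to 329 CPM in lung and 166 to 241 CPM in heart. Brain was therefore separate from both other tissues, by 3.54 ± 0.40 log2 units below lung and 3.43 ± 0.39 below heart (edgeR adjusted p = 2.86e-06 and 2.668e-06), while lung and heart differed by 0.11 ± 0.38 (adjusted p = 0.829). The summed endothelial markers were also lower in brain, at 2695 to 5344 CPM, against 14220 to 22960 CPM in lung and 12230 to 13960 CPM in heart. The part of this in the brain differences at baseline, that of Mmp15 included, was not tested. Mmp14, the activator of Mmp2 at the cell surface, was highest in lung, with 228, 479.9, 469 and 63.1 CPM against 44.4 to 124 CPM in brain and 22.5 to 41.0 CPM in heart. One lung library fell inside the brain range. Lung exceeded brain by 1.80 ± 0.43 and heart by 3.20 ± 0.44 log2 units, and brain exceeded heart by 1.40 ± 0.40.

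Among the inhibitors, Timp1 was lowest in heart at 1.88 to 3.24 CPM, against 6.11 to 22.0 CPM in brain and 4.34 to 56.0 CPM in lung. Heart lay 2.19 ± 0.52 log2 units below brain and 3.09 ± 0.56 below lung (edgeR adjusted p = 0.00221 and 0.000269), and the brain minus lung difference of -0.90 ± 0.52 was not called (adjusted p = 0.142), except without lung_0hr replicate 4 (-1.23, adjusted p = 0.00834). Timp2 was higher in lung than in brain (0.88 ± 0.29) and heart (1.33 ± 0.29). Timp3 was higher in heart than in brain (1.55 ± 0.40) and lung (1.25 ± 0.43), the latter lost without heart_0hr replicate 3 (-0.98 as lung minus heart, adjusted p = 0.0602) or lung_0hr replicate 2 (-1.14, adjusted p = 0.0590). Mmp2 was higher in heart than in brain (1.39 ± 0.35) and lung (1.11 ± 0.38), the latter lost without lung_0hr replicate 3 (-0.85 as lung minus heart, adjusted p = 0.0774). In all, 5 of 10 members differed between brain and lung, 8 between brain and heart and 8 between lung and heart, beside 64.3%, 54.8% and 61.1% of all genes tested in the same comparisons. The tissues share mice by file name, and with the mouse as a block 2 of these 21 calls were lost, those of Timp2 for brain minus lung (-0.64, adjusted p = 0.0706) and Mmp2 for lung minus heart (-1.12, adjusted p = 0.0519), and that of Timp1 for brain minus lung was gained (-1.35, adjusted p = 0.0196). The median difference of all genes was 0.42 for brain minus lung, 0.09 for brain minus heart and -0.09 for lung minus heart.

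After LPS the main question was which inhibitors and proteases changed in which ECs, and for how long. Comparisons of different times within a tissue share the 0 hr libraries. In brain 4 members rose at 6 hr (Timp1, Adamts1, Adamts4 and Adamts9), beside 4.21% of all genes tested that rose, and none fell (2.23% of all genes fell). The count of members that rose was also 4 at 24 hr (6.52% of all genes rose) and 4 at 48 hr (8.11%), each time the genes just named, then 1 at 72 hr (2.98%) and 0 at 168 hr (0% of genes in either direction). In heart 5 members rose and 1 fell at 6 hr (22.4% and 20.3% of all genes), 5 rose at 24 hr (9.07%), 2 rose at 48 hr (3.08%), and 0 were called at 72 hr and 168 hr (0.275% and 0% of all genes in either direction). Without the 6 hr mouse of library series 1, Adamts1 and Adamts9 in brain and Adamts4 in heart were also called at 72 hr. In lung 3 members rose at 6 hr (2.56% of all genes) and none fell (2.27%), and 0 were called at 24, 48, 72 and 168 hr (0.375%, 0.598%, 0.193% and 0.0117% of all genes in either direction). The median log2 fold changes of the members at 6 hr were 0.22 (brain), 0.76 (lung) and 0.59 (heart), against 0.00, -0.42 and -0.05 for all genes tested. In lung at 6 hr the scaling moved the median of all genes, from -0.42 with TMM to -0.11 with RLE and 0.14 with DESeq2, and the share of called genes that were higher from 52.9% to 66.1% and 67.5%.

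**Figure D2:**
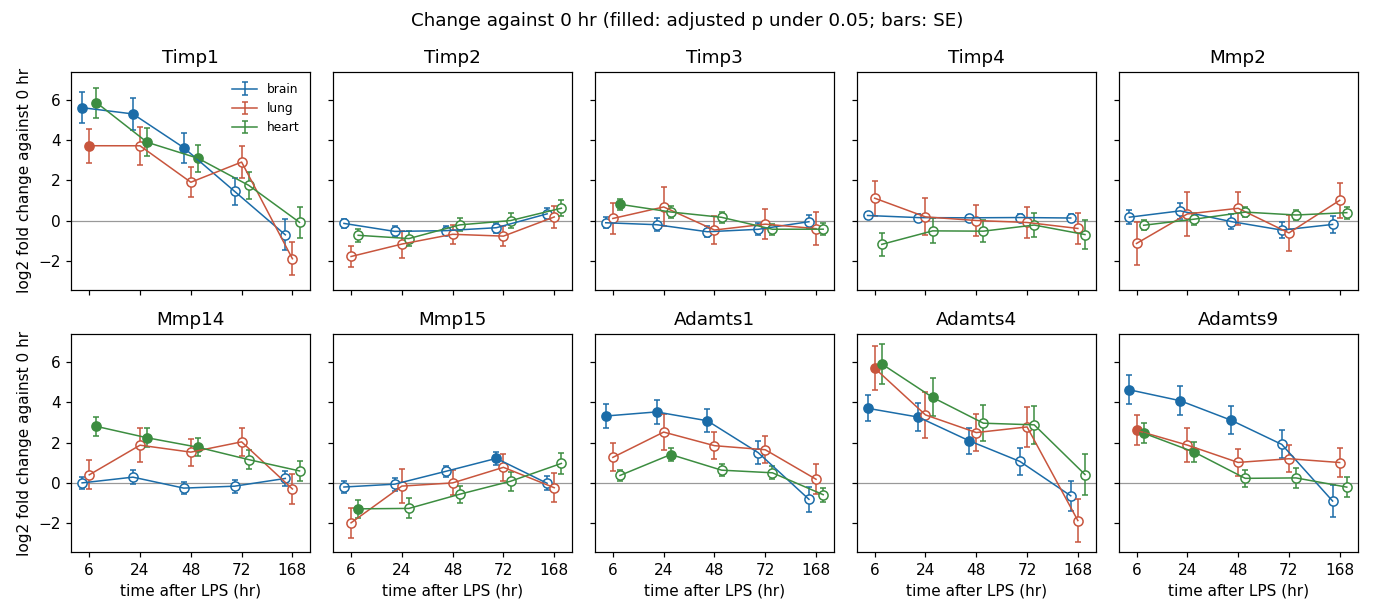
Log2 fold change against 0 hr (vertical axis) of each member at 6, 24, 48, 72 and 168 hr after LPS (horizontal axis) in brain, lung and heart ECs, where bars are SE and filled points have an adjusted p under 0.05. Timp1, Adamts4 and Adamts9 have filled points at 6 hr in each tissue, Mmp14 only in heart, and no member has one at 168 hr.

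Timp1, the inhibitor that inflammation raises in many cells, had the largest rise of any inhibitor in each tissue. In brain it went from 22.0, 11.0, 8.62, 14.5 and 6.11 CPM at 0 hr to 689, 429, 505, 547 and 20.1 CPM at 6 hr. The last of these was the mouse described above, and the other 4 exceeded every 0 hr library. At 24 hr brain Timp1 stood at 851, 412, 1389 and 1901 CPM, clear of the 0 hr libraries, and at 48 hr it ran from 14.4 to 829.7 CPM with a median of 330.4 CPM. The log2 fold change was 5.62 ± 0.78 (SE) at 6 hr, 5.31 ± 0.78 at 24 hr and 3.63 ± 0.74 at 48 hr (edgeR adjusted p = 0.000132, 0.000200 and 0.00310). Without that mouse the 6 hr change was 6.09, and within library series 2, which held the other 6 hr libraries, the difference was 5.86. By 72 hr Timp1 was at 25.3, 27.2, 40.7 and 146 CPM, still above every 0 hr library, but the change of 1.46 ± 0.68 was not called (adjusted p = 0.286), and at 168 hr it was at 8.75 to 28.8 CPM. The 48 hr value depended on the library series, with a difference from 0 hr in mean log2 CPM of 4.37 within series 1 and 1.19 within series 2. The summed fibroblast markers in brain were 548.5 to 1619 CPM at 0 hr, 1336 to 4503 CPM at 24 hr and 497.4 to 5037 CPM at 48 hr, with all 11 counted at 0 hr and 2 of 11 higher and 1 lower at 24 hr, and their part in the Timp1 level was not tested.

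In heart ECs Timp1 was low at 0 hr (2.53, 2.13, 1.88, 2.47 and 3.24 CPM) and reached 146, 141, 224, 186 and 3.42 CPM at 6 hr, again with the last value from the mouse described above. Later levels were 27.8, 55.1, 39.2 and 60.9 CPM at 24 hr, 10.1 to 50.1 CPM with a median of 25.3 CPM at 48 hr, 2.12 to 18.8 CPM at 72 hr and 1.93 to 4.15 CPM at 168 hr. The libraries at 24 and 48 hr all lay above those at 0 hr. With the mouse described above included, no step between successive times was called (from 6 to 24 hr, -1.97 ± 0.73, edgeR adjusted p = 0.103). The log2 fold change was 5.87 ± 0.75 at 6 hr, 3.90 ± 0.70 at 24 hr and 3.11 ± 0.67 at 48 hr (edgeR adjusted p = 1.225e-05, 0.00170 and 0.00827), and at 6 hr it was 6.33 without that mouse and 6.06 within library series 2. The 48 hr call was lost with limma-voom (2.86, adjusted p = 0.145), and within series the difference was 3.68 in series 1 and 2.03 in series 2. The summed level of 8 neutrophil markers in heart was 0.779 to 1.31 CPM at 0 hr, with Ly6g, Elane and Camp at 0, 37.9 to 59.2 CPM in 4 libraries at 6 hr and 0.855 CPM in the mouse described above, with 3 of 4 tested markers higher. It was 7.52 to 31.6 CPM at 24 hr and 11.3 to 44.2 CPM at 48 hr, with 3 of 4 higher at both times, and the part of these cells in the heart changes of Timp1 and the other members was not tested.

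In lung Timp1 was at 56.0, 20.1, 13.4 and 4.34 CPM at 0 hr and 205, 99.9, 529 and 28.1 CPM at 6 hr, of which the last was a single count. The change of 3.73 ± 0.85 was called (edgeR adjusted p = 0.0106), was 4.29 without the mouse of that last library, and was not called without lung_0hr replicate 3 (3.61, adjusted p = 0.0591). Later lung libraries were at 422 and 532 CPM at 24 hr, 13.6 to 233 CPM (median 121 CPM) at 48 hr, where 4 of 6 exceeded the 0 hr range, and 107, 127, 247 and 269 CPM at 72 hr. All of the 24 and 72 hr libraries exceeded the 0 hr libraries, with changes of 3.72 ± 0.94 and 2.91 ± 0.78 that were not called (adjusted p = 0.0923 and 0.139). The 48 hr change of 1.91 ± 0.75 was not called either (adjusted p = 0.346), with a difference of 2.91 within series 1 and 0.69 within series 2. The changes at 24 and 72 hr were called with DESeq2 (adjusted p = 0.00378 and 0.00357) and with limma-voom (adjusted p = 0.0367 and 0.0377). At 168 hr lung Timp1 was at 17.9, 6.10, 7.96 and 7.66 CPM, and it fell by 4.80 ± 0.87 on the log2 scale from 72 to 168 hr (adjusted p = 0.00462), where 0.879% of all genes fell. That fall was not called without lung_168hr replicate 5 (-4.65, adjusted p = 0.0552). The summed neutrophil markers in lung were 37.4 to 214 CPM at 0 hr, 0 to 3585 CPM at 6 hr and 1433 to 2739 CPM at 24 hr, with 4 of 7 tested higher at 6 hr, and the summed endothelial markers were 2846 to 17350 CPM at 6 hr. Their part in the lung changes was not tested.

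**Figure D3:**
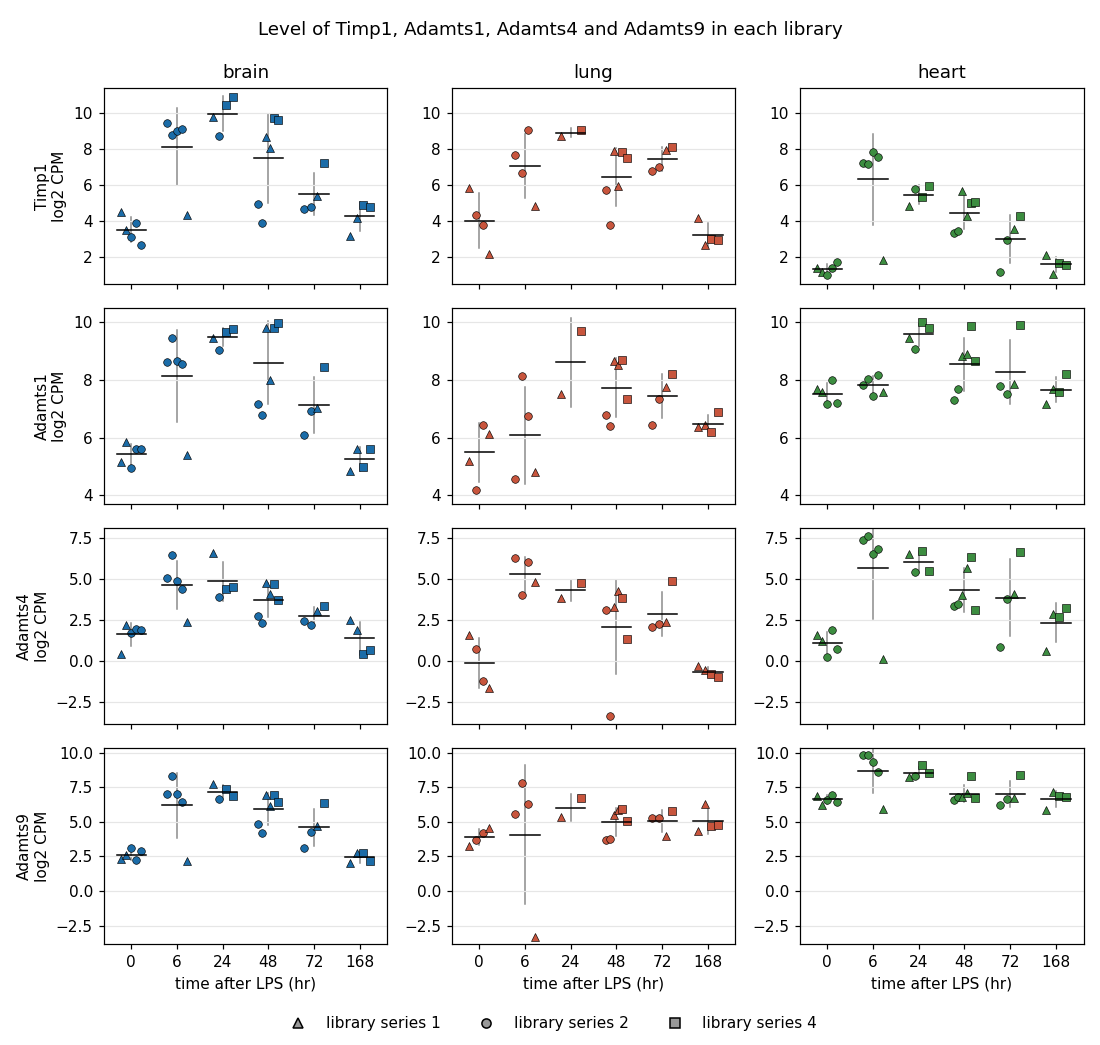
Level (log2 CPM) of Timp1, Adamts1, Adamts4 and Adamts9 in every library by time after LPS in brain, lung and heart ECs, with a marker shape for the library series, a black line at the group mean and a grey line of 1 SD. The triangle at 6 hr lies in or near the 0 hr range in brain and heart for Timp1 and Adamts4, while the circles of library series 2 lie above.

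Adamts4, an aggrecanase, had the largest rise of the 6 proteases at 6 hr in lung and heart. In heart it went from 2.97, 2.21, 1.10, 3.59 and 1.57 CPM to 169, 202, 93.7, 115 and 0.986 CPM at 6 hr, the last from the mouse described above, and to 93.5, 44.0, 105 and 45.5 CPM at 24 hr. Apart from that mouse all of these lay above the 0 hr libraries. The log2 fold change was 5.91 ± 1.00 at 6 hr and 4.25 ± 0.95 at 24 hr (edgeR adjusted p = 0.000128 and 0.00614), and 6.37 at 6 hr without that mouse. The 24 hr call was lost with limma-voom (4.41, adjusted p = 0.0580). At 48 hr heart Adamts4 ran from 8.67 to 83.1 CPM with a median of 13.7 CPM, and its change of 2.96 ± 0.88 was just outside the threshold (adjusted p = 0.0554), inside it without heart_48hr replicate 7 (3.13, adjusted p = 0.0469) and inside it without the 6 hr mouse (adjusted p = 0.00583). At 72 hr it was at 1.76, 13.9, 17.1 and 100.4 CPM, with 3 of 4 libraries above the 0 hr range, a change of 2.88 ± 0.94 that was not called (adjusted p = 0.311) but was called without the 6 hr mouse (2.80, adjusted p = 0.0341).

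In lung Adamts4 was at 2.95, 1.56, 0.343 and 0.224 CPM at 0 hr, from 3 to 23 counts, and 77.8, 16.4, 67.9 and 28.1 CPM at 6 hr. The groups did not overlap, although the last 6 hr value was again a single count. The change was 5.70 ± 1.09 (edgeR adjusted p = 0.00359), and 6.06 without that library. From 72 to 168 hr lung Adamts4 fell by 4.65 ± 1.06 on the log2 scale (adjusted p = 0.0231), from 4.08, 4.63, 5.14 and 29.3 CPM to 0.702, 0.593, 0.482 and 0.41 CPM. That fall was not called without lung_72hr replicate 5 (-3.58, adjusted p = 0.270), nor without lung_168hr replicate 2 (-4.76), replicate 4 (-4.51) or replicate 5 (-4.45).

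In brain Adamts4 was at 1.27, 4.50, 3.17, 3.77 and 3.73 CPM at 0 hr, 33.3, 90.4, 30.1, 21.3 and 5.06 CPM at 6 hr and 97.4, 15.2, 21.5 and 23.3 CPM at 24 hr. All libraries at both times lay above the 0 hr libraries, the mouse described above included. The changes were 3.71 ± 0.65 and 3.27 ± 0.70 (edgeR adjusted p = 0.000782 and 0.00448), and 4.12 at 6 hr without that mouse. At 48 hr brain Adamts4 ran from 4.98 to 26.8 CPM (median 15.2 CPM), a change of 2.09 ± 0.65 (adjusted p = 0.0340). That call was lost without brain_0hr replicate 1 (1.73), replicate 2 (2.01) or replicate 3 (2.13), without brain_48hr replicate 3 (1.98) or replicate 6 (1.90), and with limma-voom (2.00, adjusted p = 0.108). The difference at 48 hr was 3.11 within series 1 and 0.68 within series 2.

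Adamts9 rose in each tissue. In brain it was at 4.80, 6.00, 8.37, 4.64 and 7.49 CPM at 0 hr, 129.6, 323, 129.9, 88.5 and 4.45 CPM at 6 hr and 210.5, 98.2, 166 and 116 CPM at 24 hr. The 6 hr mouse described above was below every 0 hr library, and the others were above. The changes were 4.62 ± 0.72 at 6 hr, 4.08 ± 0.73 at 24 hr and 3.12 ± 0.70 at 48 hr (edgeR adjusted p = 0.000297, 0.00124 and 0.00553), and 5.05 at 6 hr without that mouse. At 48 hr the libraries ran from 18.4 to 126 CPM (median 79.0 CPM), all above 0 hr, with differences of 4.11 within series 1 and 1.77 within series 2. At 72 hr brain Adamts9 stood at 8.41, 18.9, 25.9 and 80.5 CPM, a change of 1.91 ± 0.70 that was not called (adjusted p = 0.151) but was called without the 6 hr mouse (1.80, adjusted p = 0.0230), and at 168 hr at 3.88, 6.66, 6.68 and 4.49 CPM, a fall of 2.81 ± 0.76 on the log2 scale between these times (adjusted p = 0.0237), where 4.81% of all genes fell. That fall was lost without brain_72hr replicate 5 (-2.09, adjusted p = 0.212), without brain_168hr replicate 4 (-2.91) or replicate 5 (-2.73) and with limma-voom (-2.55, adjusted p = 0.165).

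In heart Adamts9 was at 118, 75.0, 97.9, 123 and 86.2 CPM at 0 hr, 906, 935, 642, 381 and 61.7 CPM at 6 hr and 306, 319.8, 558 and 365 CPM at 24 hr. By 48 hr the median was 111 CPM, within the 0 hr range. The changes were 2.47 ± 0.48 at 6 hr and 1.52 ± 0.49 at 24 hr (edgeR adjusted p = 0.000499 and 0.0372), and 2.90 at 6 hr without the mouse described above. The 24 hr call was lost without any of 7 libraries, namely heart_0hr replicates 2, 3, 4 and 5 (1.44, 1.50, 1.58 and 1.47) and heart_24hr replicates 1, 2 and 4 (1.45, 1.50 and 1.47), although no 24 hr library overlapped the 0 hr libraries. In lung Adamts9 was at 9.43, 12.8, 17.9 and 23.4 CPM at 0 hr and 46.9, 224, 79.6 and 0 CPM at 6 hr, where the 0 allows up to 3 counts. The change of 2.61 ± 0.74 was called (adjusted p = 0.0371), and was 3.05 without the library at 0. It was lost without lung_0hr replicate 1 (2.46), replicate 2 (2.62) or replicate 3 (2.77), without lung_6hr replicate 2 (1.82) and with limma-voom (2.18, adjusted p = 0.0901).

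Adamts1, a versican-cleaving protease that is also known to bind vascular endothelial growth factor, rose in brain from 35.3, 57.7, 30.6, 48.2 and 48.2 CPM at 0 hr to 395, 696, 407, 375 and 41.7 CPM at 6 hr, the last from the mouse described above. It went on to 704, 530.4, 806 and 873 CPM at 24 hr and 111 to 992 CPM (median 572 CPM) at 48 hr, with every library at these times above 0 hr. The changes were 3.32 ± 0.58, 3.53 ± 0.59 and 3.08 ± 0.58 (edgeR adjusted p = 0.000702, 0.000690 and 0.00157), and 3.75 at 6 hr without that mouse. At 48 hr the difference was 3.40 within series 1 and 1.61 within series 2. At 72 hr brain Adamts1 was at 68.3, 122, 131 and 347 CPM, still above 0 hr in 4 of 4 libraries, with a change of 1.50 ± 0.56 that was not called (adjusted p = 0.159) but was called without the 6 hr mouse (adjusted p = 0.0338). It fell by 2.32 ± 0.62 on the log2 scale from 72 to 168 hr (adjusted p = 0.0234), a call lost without brain_72hr replicate 5 (-2.04, adjusted p = 0.150), brain_168hr replicate 4 (-2.18) or brain_168hr replicate 5 (-2.36).

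Heart Adamts1 followed another course. It was at 206, 193, 143, 255 and 148 CPM at 0 hr, 226, 262, 175, 291 and 189 CPM at 6 hr, and 704, 541, 1028 and 879.5 CPM at 24 hr. The 6 hr libraries overlapped the 0 hr libraries, and the 24 hr libraries all exceeded them. The change was 0.37 ± 0.29 at 6 hr (edgeR adjusted p = 0.311) and 1.41 ± 0.32 at 24 hr (adjusted p = 0.00677), the latter lost without heart_24hr replicate 2 (1.26, adjusted p = 0.0620). In lung Adamts1 was called at no time, with a change of 1.27 ± 0.70 at 6 hr (adjusted p = 0.271) and 2.52 ± 0.89 at 24 hr (adjusted p = 0.436), where both libraries, at 183 and 828 CPM, lay above the 0 hr range of 18.2 to 87.7 CPM.

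Mmp14 rose in heart at 6, 24 and 48 hr, and its changes from 0 hr were not called in brain or lung. In heart it was at 32.2, 22.5, 28.7, 41.0 and 37.2 CPM at 0 hr, 215, 197, 492, 243 and 25.8 CPM at 6 hr, 130.5, 167, 256 and 176 CPM at 24 hr and 80.6 to 217 CPM (median 111 CPM) at 48 hr. Apart from the 6 hr mouse described above, every one of these libraries lay above the 0 hr libraries. The changes were 2.81 ± 0.46, 2.24 ± 0.48 and 1.77 ± 0.44 (edgeR adjusted p = 9.678e-05, 0.00459 and 0.0215), and 3.21 at 6 hr without that mouse. The 48 hr call was lost without heart_0hr replicate 1 (1.79), replicate 2 (1.64) or replicate 3 (1.73) and with limma-voom (1.77, adjusted p = 0.0574), and within series the difference was 2.26 in series 1 and 1.21 in series 2. At 72 hr heart Mmp14 was at 38.4 to 119 CPM, with 3 of 4 libraries above every 0 hr library. At 168 hr it was at 44.6 to 66.7 CPM, with 4 of 4 above. These changes of 1.15 ± 0.45 and 0.59 ± 0.49 were not called (edgeR adjusted p = 0.586 and 0.985). In brain the 0 hr libraries were at 44.4 to 124 CPM and the 6 hr libraries at 72.6 to 89.7 CPM, a change of 0.00 ± 0.31 (adjusted p = 0.999). In lung Mmp14 was at 228, 479.9, 469 and 63.1 CPM at 0 hr, 281, 531, 1672 and 0 CPM at 6 hr and 1905, 1490.4, 663 and 737 CPM at 72 hr. Its lung changes were not called, at 0.40 ± 0.72 (adjusted p = 0.778) at 6 hr and 2.04 ± 0.70 (adjusted p = 0.367) at 72 hr, although the 72 hr libraries exceeded every 0 hr library and DESeq2 called that change (adjusted p = 0.0113).

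Mmp15, the related membrane-type enzyme, fell in heart at 6 hr, from 241, 231, 166, 210.2 and 170.5 CPM to 78.4, 73.3, 89.6, 87.7 and 101 CPM. The groups did not overlap, and here the mouse described above lay with the other 6 hr libraries. The change was -1.29 ± 0.45 (edgeR adjusted p = 0.0234) and -1.43 without that mouse, and the call was lost without heart_6hr replicate 1 (-1.26, adjusted p = 0.0506) or heart_6hr replicate 2 (-1.23, adjusted p = 0.0514). At 6 hr the summed endothelial markers in heart were 5384 to 7645 CPM in 4 libraries and 13850 CPM in the mouse described above, against 12230 to 13960 CPM at 0 hr, with 9 of 12 markers lower, and their part in the change of Mmp15 was not tested. Heart Mmp15 was at 101, 103, 48.4 and 31.1 CPM at 24 hr, a change of -1.27 ± 0.50 that was not called (adjusted p = 0.0756), and at 161 to 190.4 CPM at 72 hr. In lung the 6 hr libraries were at 70.0, 5.06, 133 and 112 CPM against 63.7 to 329 CPM at 0 hr, a change of -1.99 ± 0.73 (adjusted p = 0.105) that was called only without lung_6hr replicate 3 (-2.69, adjusted p = 0.0181) among the fits without 1 library. In brain Mmp15 moved at another time and in the other direction, to 32.9, 45.9, 37.5 and 42.5 CPM at 72 hr, above the 0 hr range of 11.5 to 30.7 CPM. That change of 1.22 ± 0.31 was called (adjusted p = 0.0234), but not without brain_0hr replicate 1 (1.14), brain_0hr replicate 2 (1.11), brain_72hr replicate 3 (1.20) or brain_72hr replicate 5 (0.95), nor with limma-voom (1.08, adjusted p = 0.0635), and within series the difference was 1.65 in series 1 and 0.49 in series 2. Brain Mmp15 then fell by 1.24 ± 0.32 on the log2 scale to 12.7 to 16.0 CPM at 168 hr (adjusted p = 0.0209), a fall lost without brain_72hr replicate 5 (-0.80, adjusted p = 0.258), brain_168hr replicate 4 (-1.34) or brain_72hr replicate 3 (-1.21).

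**Figure D4:**
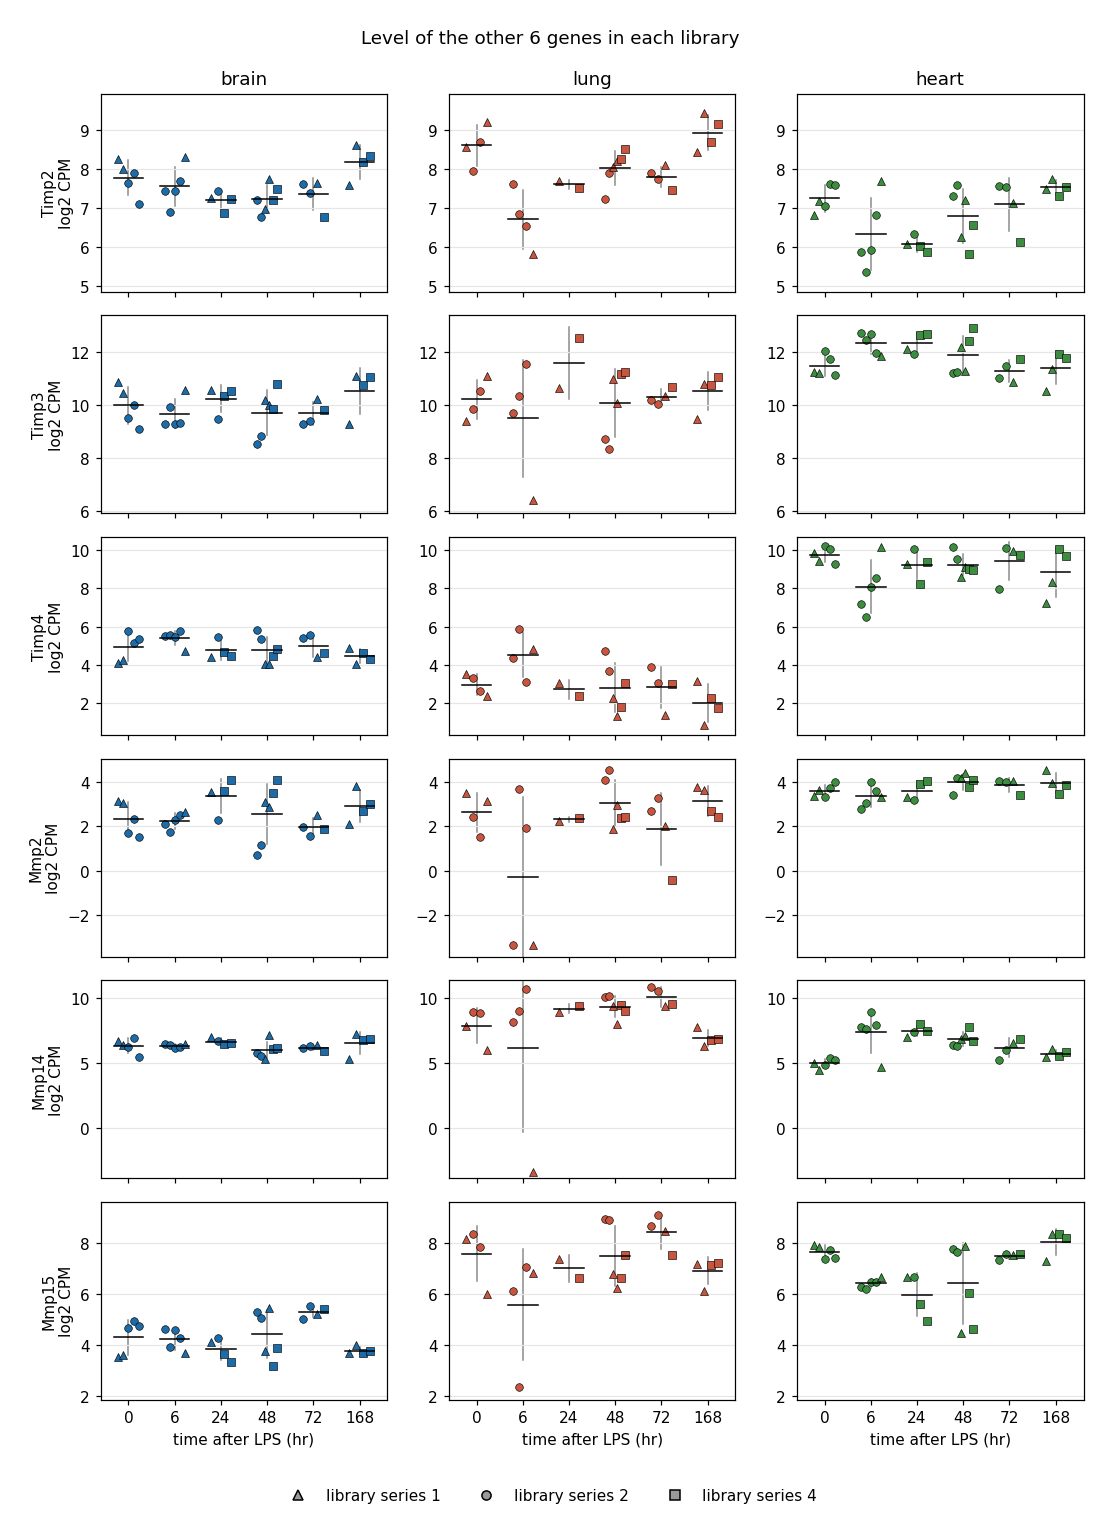
Level (log2 CPM) of Timp2, Timp3, Timp4, Mmp2, Mmp14 and Mmp15 in every library by time after LPS in brain, lung and heart ECs, with a marker shape for the library series, a black line at the group mean and a grey line of 1 SD. Mmp14 rises in heart at 6, 24 and 48 hr while Mmp15 is low there at 6 hr. The lowest lung points of Mmp2 and Mmp14 at 6 hr are libraries with counts of 0.

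Timp3, the matrix-bound inhibitor of ADAMTS proteases, was called in 1 of the 15 comparisons with 0 hr, in heart at 6 hr. It was at 2468, 2361, 4190.3, 3442 and 2273 CPM at 0 hr and 6738, 5697, 6602, 4014 and 3711 CPM at 6 hr. These groups overlapped at their edges. The change was 0.82 ± 0.26 (edgeR adjusted p = 0.0162) and 0.94 without the mouse described above, and it was lost without heart_0hr replicate 5 (0.72, adjusted p = 0.0503). Syn3, the gene that shares exon bases with Timp3, rose by 1.12 ± 0.34 in the same comparison (adjusted p = 0.0113). In brain Timp3 changed by -0.10 ± 0.28 at 6 hr (adjusted p = 0.909), and in lung by 0.11 ± 0.78 (adjusted p = 0.950).

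Whether Timp4 and Timp2 fell in heart at 6 hr depended on the mouse described above and on the test. Timp4 was at 147, 90.7, 266, 370.0 and 1152 CPM at 6 hr, the last from that mouse, against 615 to 1167 CPM at 0 hr. The other 4 libraries were below every 0 hr library. The change was -1.17 ± 0.57 with the mouse (edgeR adjusted p = 0.0982) and -2.31 without it (adjusted p = 0.000521). Timp2 was at 58.4, 40.8, 60.8, 112 and 205 CPM at 6 hr against 112 to 197 CPM at 0 hr, a change of -0.72 ± 0.33 (adjusted p = 0.0806) and -1.42 without the mouse (adjusted p = 5.501e-05). Limma-voom called both with that mouse included (-1.65, adjusted p = 0.0218 for Timp4, and -0.96, adjusted p = 0.0197 for Timp2). In these heart libraries the summed cardiomyocyte markers were 4278 to 8172 CPM at 6 hr against 3218 to 5798 CPM at 0 hr, with 1 of 8 markers higher and 0 lower, and the 11 fibroblast markers summed to 236.1 to 772.8 CPM against 519 to 820.9 CPM, with 7 lower, and their part was not tested. At 24 hr heart Timp4 was at 609, 1069, 300.1 and 672 CPM (-0.50 ± 0.62, adjusted p = 0.576) and heart Timp2 at 67.2, 80.6, 64.6 and 58.4 CPM (-0.88 ± 0.39, adjusted p = 0.110), the latter below every 0 hr library and called without the 6 hr mouse (-0.80, adjusted p = 0.0303).

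In lung, Timp2 was at 382, 247, 416 and 593 CPM at 0 hr and 197, 115, 92.9 and 56.2 CPM at 6 hr. The groups did not overlap, and the last value rested on 2 counts. The change of -1.78 ± 0.54 lay at the threshold (edgeR adjusted p = 0.0502) and was called without lung_6hr replicate 1 (-2.03, adjusted p = 0.0416) or lung_6hr replicate 3 (-1.68, adjusted p = 0.0135) and with DESeq2 (-1.17, adjusted p = 0.0266), but not without the 6 hr mouse of library series 1 (-1.45, adjusted p = 0.103). In brain Timp2 changed by -0.13 ± 0.23 and Timp4 by 0.26 ± 0.15 at 6 hr (adjusted p = 0.832 and 0.406). Mmp2, the type IV collagenase, was called in none of the 15 comparisons with 0 hr. Its 6 hr changes were 0.18 ± 0.36 in brain, -1.13 ± 1.05 in lung and -0.23 ± 0.25 in heart, and its group medians lay between 3.73 and 11.9 CPM in brain and between 9.93 and 17.4 CPM in heart.

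**Figure D5:**
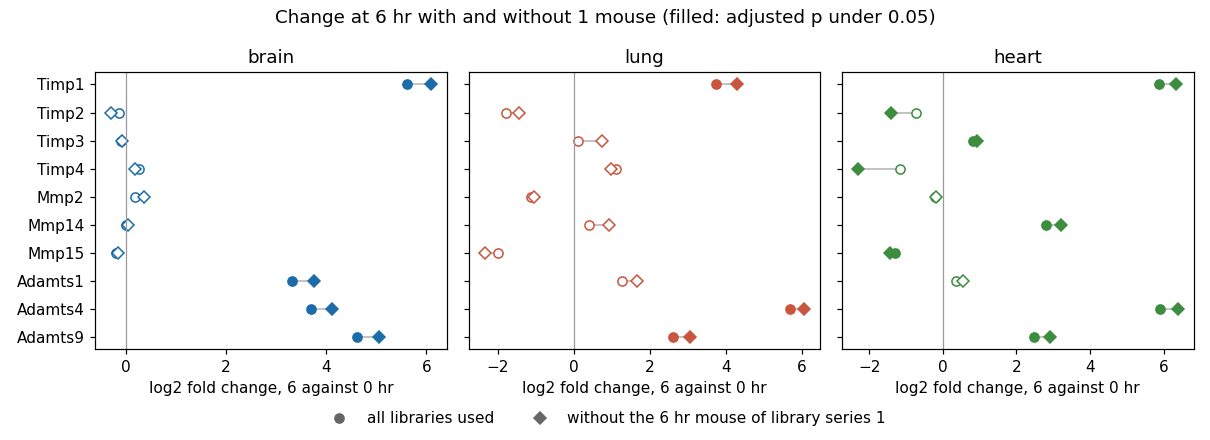
Log2 fold change at 6 hr against 0 hr (horizontal axis) of the 10 genes in brain, lung and heart ECs with all libraries used (circles) and without the 6 hr mouse of library series 1 (diamonds), where filled symbols have an adjusted p under 0.05. The heart changes of Timp2 and Timp4 are filled only without that mouse, at -1.42 and -2.31.

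The difference between tissues in the response was tested as an interaction in 1 fit of the 3 tissues, at 6 and 24 hr, over 60 comparisons of the members. Of these, 4 were called, all at 6 hr. Mmp14 responded less in brain than in heart by 2.75 ± 0.61 on the log2 scale (-2.75, edgeR adjusted p = 0.0118) and less in lung than in heart by 2.13 ± 0.66 (-2.13, adjusted p = 0.0201). Adamts1 responded more in brain than in heart by 2.98 ± 0.71 (adjusted p = 0.0231), and the Timp4 change in lung lay above that in heart by 2.55 ± 0.84 (adjusted p = 0.0284). Neither Timp4 change from 0 hr was called within its tissue. These changes were 1.12 ± 0.87 in lung (edgeR adjusted p = 0.449) and -1.17 ± 0.57 in heart (adjusted p = 0.0982). The lung 6 hr libraries held 37, 47, 257 and 1 counts of Timp4. The shares of all genes called were 0.795% for brain against heart, 16.4% for lung against heart and 12.6% for brain against lung, where 0 members were called. At 24 hr 0 members were called, beside 0.0772%, 0.264% and 0.427% of all genes in the same order. For lung against heart at 6 hr, the members called (2 of 10) thus lay near the share of all genes. The 6 hr medians of all genes also moved with the method. For lung minus heart the median was -0.23 with edgeR, 0.43 with DESeq2 and 0.72 with limma-voom. For brain minus lung it was 0.25, -0.55 and -0.59. With the mouse as a block, the 4 calls held (brain minus heart -2.21 for Mmp14 and 2.51 for Adamts1, lung minus heart -2.44 for Mmp14 and 3.22 for Timp4), and 3 were added, those of Timp1 at 6 hr for brain minus lung (2.30, adjusted p = 0.0193) and lung minus heart (-2.47, adjusted p = 0.00809) and of Adamts9 at 24 hr for brain minus heart (2.58, adjusted p = 0.0416). With limma-voom 2 of the 60 were called, and without a filter on low counts 14.

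Each of the 4 interaction calls was lost when some libraries were left out. Leaving out the libraries with replicate number 1, 2, 3 or 4 in turn gave brain minus heart values of -2.61, -2.62, -2.02 and -2.58 for Mmp14 and 2.99, 2.94, 2.88 and 3.03 for Adamts1, none of them called. The lung minus heart value of Mmp14 was lost without replicate number 1 (-1.62), 2 (-2.03) or 4 (-1.94), and that of Timp4 without replicate number 2 (1.27), 3 (2.37) or 4 (2.56). With lung libraries of at least 10% of reads on genes, which leaves 1 at 6 hr, the lung minus heart value was -0.85 for Mmp14 and 0.78 for Timp4, neither of them called. Without the 6 hr mouse of library series 1 the number of calls was 9, and the values added were those of Timp2 (1.38, adjusted p = 0.0308), Timp4 (2.73, adjusted p = 0.00431) and Adamts9 (2.36, adjusted p = 0.0176) for brain minus heart and of Adamts1 (2.18, adjusted p = 0.0348) and Mmp15 (2.22, adjusted p = 0.0452) for brain minus lung. The responses of Timp1 and Timp3 were called as different in no pair of tissues at 6 hr in the main test, with brain minus heart values of -0.21 ± 0.93 for Timp1 (adjusted p = 1) and -0.86 ± 0.56 for Timp3 (adjusted p = 0.553).

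Between successive times, 5 of 120 comparisons of the members were called, all of them falls from 72 to 168 hr, namely those of brain Mmp15, Adamts1 and Adamts9 and of lung Timp1 and Adamts4 given above, while no heart member was called there (0.0686% of all genes in either direction). No member was called from 6 to 24 hr, from 24 to 48 hr or from 48 to 72 hr in this test, beside 0.291% of all genes from 6 to 24 hr in brain, 0.00586% in lung and 4.74% in heart. This test included the 6 hr mouse of library series 1. From 6 to 24 hr in heart, 760 of 16024 genes were called with that mouse and 4896 of 15990 without it. Without its heart library, heart_6hr replicate 5, 13 comparisons of members were called. The lack of calls in the main test thus does not show that members held their level after 6 hr. From 24 to 48 hr the share of all genes called was 0% in each tissue, and from 48 to 72 hr 0% (brain), 0.0176% (lung) and 0.00624% (heart), and with DESeq2 11 of the 120 were called. In brain the mean levels of Timp1, Adamts1, Adamts4 and Adamts9 at 24 hr were 9.94 ± 0.96, 9.48 ± 0.32, 4.88 ± 1.18 and 7.14 ± 0.50 log2 CPM (SD, n = 4). At 6 hr the 4 libraries of series 2, without the mouse described above, had means of 9.06, 8.82, 5.23 and 7.21 log2 CPM. The means of the 2 times are not alike in series, since those at 24 hr run over library series 1, 2 and 4. In the series-adjusted fit without that mouse, the log2 fold changes from 0 hr were 6.09, 3.75, 4.12 and 5.05 at 6 hr. At 24 hr they were 5.195, 3.43, 3.02 and 3.92, each smaller in value than at 6 hr. With that mouse included the Adamts1 values stood the other way, at 3.32 at 6 hr and 3.53 at 24 hr. In that main test no brain step between these times was called for these genes.

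Other genes of matrix turnover were counted from lists named by family, and their counts at 6 hr stand beside the shares of all genes that rose and fell, 4.21% and 2.23% in brain, 2.56% and 2.27% in lung and 22.4% and 20.3% in heart. Among 20 other matrix metalloproteinases, of which 14 were tested in brain, 13 in lung and 11 in heart, 4 rose and 1 fell in brain, 2 rose and 1 fell in lung, and 3 rose and 2 fell in heart at 6 hr. The stromelysin Mmp3 changed most, by 9.09 ± 1.32 log2 units in brain at 24 hr (edgeR adjusted p = 0.000185), from 32 counts in total over the 5 libraries at 0 hr, so that this fitted value depends on the prior count and is no bound. Mmp28 fell by 2.68 ± 0.92 on the log2 scale in heart at 24 hr and Mmp17 by 0.71 ± 0.17 in brain at 48 hr. Of 16 other ADAMTS proteases, 1 of 16 tested rose in brain, 0 of 11 in lung and 3 of 11 in heart at 6 hr, where 4 fell. Adamts5, the other main aggrecanase, rose by 2.14 ± 0.51 in brain at 24 hr, and Adamts2, which trims procollagen, fell by 0.91 ± 0.24 on the log2 scale in heart at 6 hr. Of 9 ADAM proteases, 2 rose and 3 fell among 8 tested in heart at 6 hr, with Adam17, the sheddase of tumor necrosis factor, at 0.84 ± 0.30 and Adam19 at -1.74 ± 0.46, while in brain Adam9 rose by 0.90 ± 0.21 at 24 hr.

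Of 19 other protease regulators, 4 rose and 2 fell in brain, 1 rose in lung, and 4 rose and 7 fell in heart at 6 hr. Plaur, the urokinase receptor, rose by 5.76 ± 0.85 in brain at 6 hr, and the ADAMTS-like protein Papln fell by 3.40 ± 0.71 on the log2 scale in heart at 24 hr. Of 23 proteoglycan and basement membrane substrates, 3 of 23 tested rose in brain, 2 of 22 in lung and 4 of 20 in heart at 6 hr, where 6 fell. Vcan, the versican that Adamts1, Adamts4 and Adamts9 cleave, rose by 5.33 ± 0.87 in lung at 6 hr. Thbs1, a matricellular glycoprotein, rose by 2.44 ± 0.53 in heart at 6 hr, and Sparcl1 fell by 2.93 ± 0.70 on the log2 scale in heart at 24 hr. Among the 3 synapsin genes that hold Timp1, Timp3 and Timp4 within their span, Syn2 rose by 1.70 ± 0.31 in heart at 24 hr.

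The genes most like each member were taken by Pearson's r over the 18 group means of log2 CPM, among 13349 genes, as a description, since these means share tissue, time and libraries. For Timp1 they were Saa1 (0.96) and Il17ra (0.94), for Adamts1 Zc3h12a (0.90) and Fosl1 (0.90), for Adamts4 Ctps (0.93) and Cxcl1 (0.92), and for Adamts9 P2ry2 (0.94) and Slc15a3 (0.92). Among these neighbours, Saa1 is an acute phase gene, Zc3h12a and Fosl1 a ribonuclease and a transcription factor subunit of inflammation, and Cxcl1 a chemokine. Il17ra, Ctps and the neighbours of Adamts9 are none of these. For Timp4 they were Gm6166 (0.98) and Actn2 (0.97), the latter a sarcomere gene, and for Mmp15 Stab1 (0.96) and Cxcr4 (0.94). For Timp2 they were Mfap2 (0.92) and Pde5a (0.92), for Timp3 Ccny (0.94) and Popdc2 (0.93), for Mmp2 Vamp3 (0.97) and Cdca4 (0.96), and for Mmp14 Gm20568 (0.94) and Rpsa-ps10 (0.94). Among the members themselves, Timp2 and Adamts4 ran most against each other (-0.87).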

How the data were processed

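Ribosome-bound RNA from endothelial cells was sequenced on a HiSeq 4000. The authors aligned reads to mm10 with STAR 2.4.2 and deposited raw read counts per gene from HTSeq 0.6.1, 1 file per run. The annotation release and strand setting are not given in the sources used here. The 217 runs were summed to 98 libraries, rows that name no gene (median 43.8% of reads) were dropped, and 80 libraries with at least 3% of reads on genes were used (284457 to 43417945 counts). Library series and mouse were read from file names. Of 52550 gene IDs, 52403 matched a symbol.

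Counts were tested in R 4.3.3 with edgeR 4.0.16 (TMM, filterByExpr, quasi-likelihood F test, 2-sided) within each tissue, with library series as covariate and Benjamini-Hochberg adjustment over all genes tested, called under 0.05. Dividing the absolute log2 fold change by √F gave the SE. CPM used TMM factors, and log2 CPM a prior count of 2. DESeq2 1.42.0 and limma 3.58.1 (voom) were alternatives. The scripts were tested on simulated data. Members and lists were chosen with earlier results of these data known. Named were all 10 members, the 3 genes per other list with the largest called change among those averaging 3 or more in log2 CPM, and the 2 genes most correlated with each member, and some items under these rules are not reported here. The floor of 3 counts covers counting error only.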

Additional observations from a re-analysis of the deposited data

Results flagged for a closer look

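Among 170 groups of 4 to 6 libraries tested for a library far from the others, 12 were picked out, where chance gives about 1 in 20 or 8.5. Values are the gap to the nearest library as a share of the range of the group in log2 CPM. In the 6 hr mouse of library series 1 the gap was 0.866 for Timp1 and 0.781 for Adamts1 in brain replicate 6, and 0.888 for Timp1 and 0.853 for Adamts4 in heart replicate 5, all low. In heart at 72 hr, replicate 5 was low in Mmp2 (0.911) and high in Adamts1 (0.85), and replicate 1 was low in Mmp15 (0.874). Mmp15 was also low in heart replicate 1 at 168 hr (0.857) and in lung replicate 2 at 168 hr (0.908). Adamts4 was low in brain replicate 1 at 0 hr (0.717) and high in lung replicate 5 at 72 hr (0.884). Adamts9 was high in heart replicate 6 at 48 hr (0.731).

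The 6 hr response differed between tissues by the edgeR interaction test for Mmp14 in brain against heart (-2.75) and lung against heart (-2.13), for Adamts1 in brain against heart (2.98) and for Timp4 in lung against heart (2.55).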

How the results depend on the processing

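No called value changed sign under any setting. Counts are of called combinations of gene and comparison. Brain gave 13 of 50 (11 to 15 leaving out 1 library, 11 to 16 over other settings). Lung gave 3 of 50, with a range of 1 (without lung_0hr replicate 3) to 6 (without lung_6hr replicate 3), 9 with DESeq2, 5 each with limma-voom, no low-count filter, no library series covariate or at least 10% of reads on genes, and 15 in 1 fit of the 3 tissues. Heart gave 13 of 50 (11 to 18, the highest without heart_6hr replicate 5) and 21 with no low-count filter. Baseline differences gave 21 of 30 (20 to 23 leaving out 1 library, 18 to 22 over other settings, the lowest with all libraries). Tissue differences in response gave 4 of 60 (0 to 5 leaving out a replicate number: 2 without 1, 2 or 3 and 0 without 4), 2 with limma-voom, 14 with no low-count filter, 1 with all libraries, 2 with at least 10% of reads on genes, 9 without the 6 hr mouse of library series 1 and 7 with the mouse as a block. Successive times gave 5 of 120, with a range of 2 (without brain_72hr replicate 5 or brain_168hr replicate 4) through 3 (without brain_168hr replicate 5 or lung_168hr replicate 5) to 13 (without heart_6hr replicate 5), 11 with DESeq2, 21 with no low-count filter and 16 without the 6 hr mouse. The settings without that mouse, at 10% or, for tissue differences in response, with the mouse block were chosen after seeing the data. The causes of these shifts were not tested.

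Deviations of same-numbered libraries at 0 hr and after LPS correlated over 0.1 in 5 of 20 brain, 8 of 16 lung and 3 of 21 heart pairs. Their medians were -0.39, 0.13 and -0.01, which does not settle whether replicate numbers pair the samples. Libraries of 1 mouse by file name correlated over 0.1 between tissues in 17 of 23 brain and lung, 23 of 28 brain and heart and 19 of 23 lung and heart pairs. Library series was not taken out of any of these deviations, so that a shared mouse and a shared series cannot be told apart. The main tissue comparisons treat libraries of 1 mouse as independent. With the replicate block the counts were 11 in brain, 2 in lung, 11 in heart, 22 at baseline, 4 for tissue differences and 2 for successive times. Depth limited lung at 6 hr most, where 1 library had 284457 counts.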
